A study of Mus musculus with 40 samples.

Results

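Aortas of mice lacking smooth muscle calcineurin were compared after 24 h of angiotensin-II (Ang-II) infusion and without it, which asks how the arterial wall answers the hormone when its smooth muscle cells are made to lose calcineurin. The comparison took in 6 of the 40 RNA-seq libraries of the series, 3 labelled SM-Cn-/- with 24 h of Ang-II and 3 labelled SM-Cn-/- without Ang-II, and every protein-coding gene of the expression table, 14424 of the 17402 genes listed. All 6 came from male mice that carried floxed Ppp3r1 (CnB1-flox), the gene of the regulatory subunit CnB1, together with Myh11-CreERT2, a tamoxifen-inducible Cre that is active in smooth muscle cells and not in the endothelium or the fibroblasts of the wall. Each mouse had been given 1 mg of tamoxifen daily for 5 days at 10 to 12 weeks of age and was used 6 weeks later. The treated mice carried a subcutaneous minipump that released Ang-II at 1 µg/kg/min, and the untreated mice had the same operation without a pump. Each library was made from a pool of 3 aortas after the perivascular tissue and the adventitia were pulled away, so that the spread between libraries is a spread between pools. Groups used beside these 6 were SM-Cn-/- libraries at 2 h and 6 h of Ang-II (3 each), and Cn-Ctl libraries, labelled CnB1-flox and Myh11-CreERT2-neg and also given tamoxifen, untreated or with 24 h of Ang-II (2 each). The methods of the paper also list Myh11-CreERT2 mice without floxed CnB1 among the Cn-Ctl, which the labels do not show. Per the paper, an untreated Cn-Ctl replicate was discarded because it deviated from the others in PCA. A set of genes was taken from wild-type male mice of a second experiment, untreated or with 24 h of Ang-II (3 each). Those mice were 10 to 12 weeks old at the start of their experiment, and no tamoxifen is described for them. Without the 6 weeks that followed tamoxifen in the other mice, they were younger when Ang-II was given. The treated Cn-Ctl mice had been chosen by the authors for raised systolic pressure while no such choice was made among SM-Cn-/- mice, so genotype and that selection cannot be told apart. The treated wild-type mice were chosen in the same way. The paper places the Myh11-CreERT2 transgene on the Y chromosome, so SM-Cn-/- and Cn-Ctl as labelled also differ in that transgene.

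Calcineurin is a phosphatase switched on by calcium and calmodulin, built from a catalytic A subunit and a regulatory B subunit that the A subunit needs to remain stable. Its best known substrates are the NFAT transcription factors, which enter the nucleus once dephosphorylated. Ang-II acts on smooth muscle mainly through the AT1 receptor, raises intracellular calcium, contracts the vessel, and with longer exposure is known to raise the synthesis of extracellular matrix and to remodel the wall.

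The values are normalised counts, in which 0.5 is added to a gene's reads before division by the authors' own scaled size of the library, and they lie near the CPM scale. The assigned reads were 8.33, 6.17 and 10.25 M in the libraries at 24 h and 6.47, 3.60 and 4.17 M in the untreated ones, so the untreated group was the shallower. Genes whose adjusted p was under 0.05 in a limma fit across all genes are called DEGs. The normalised count of Ppp3r1, the deleted gene (chr11:17159263-17200375 in GRCm38), was 83.5, 69.5 and 48.8 in the untreated libraries and 84.1, 84.4 and 54.4 at 24 h, with a log2 fold change of 0.15 (SE 0.33, adjusted p = 0.92). In Cn-Ctl it was 104 and 78.8 untreated and 80.3 and 45.7 at 24 h, which overlaps these values. The labelled deletion was thus not visible in this count, which sums the reads of all exons and of every cell type of the wall and does not separate the floxed part, so it does not check the label. The authors left out mice in which they could not show the deletion, and genotypes are given below as labelled. Beyond the 3 libraries of a group being pools, the 24 h group differed from the untreated one in base composition. In the GC-richest of 5 bins of genes, the 24 h libraries stood 0.15, 0.23 and 0.35 above the gene means on the log2 scale, and the untreated libraries stood at -0.14, -0.10 and -0.06. Across 10450 genes the log2 fold change correlated with GC content at r = 0.37, a description across genes, which are not independent replicates. A GC correction of the values was therefore added after the data were seen, and for the comparison within SM-Cn-/- its calls are given beside those of the named genes and lists where they differ. The 24 h library of replicate 3 lay apart from the other libraries of its group on the leading component and had the strongest GC trend of the 6.

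**Figure D1:**
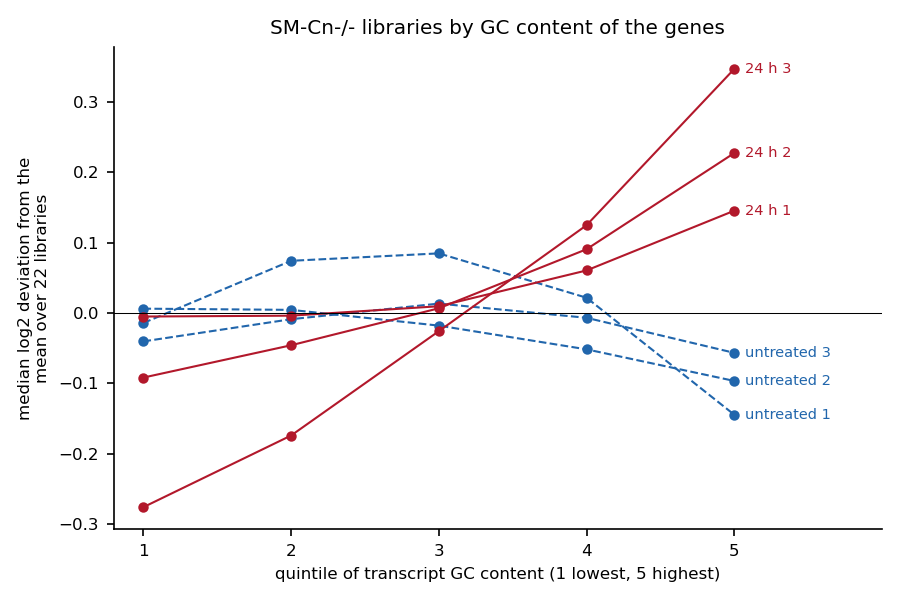
Median deviation of each of the 6 SM-Cn-/- libraries from the gene means over 22 libraries (y axis, log2 normalised count) in 5 bins of the genes ordered by GC content of the longest transcript (x axis). The 3 libraries at 24 h of Ang-II lie above the 3 untreated ones in the bin richest in GC, at 0.15, 0.23 and 0.35 against -0.14, -0.10 and -0.06.

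After 24 h of Ang-II, the SM-Cn-/- aortas held more metallothionein transcript (Mt1, Mt2), more of the glucocorticoid-induced genes Fkbp5 and Map3k6, more of the mitochondrial folate enzyme Mthfd2 and more of several ribosomal proteins, and less of the growth factor gene Tgfb2, the binding protein gene Igfbp5 and Nrep. Of the 14424 genes, 114 were DEGs (0.79%), 92 higher (0.638%) and 22 lower (0.153%), while 1660 had an unadjusted p under 0.05. With the GC correction 78 were DEGs, 44 higher and 34 lower, and 60 genes were called in both. The share of higher calls, 80.7% of the 114, therefore rested in part on how base composition was treated. The libraries of both groups did not overlap for 2833 genes (19.6%), which include all 114 DEGs. More than 2-fold changes were measured in 72 of the higher and 13 of the lower DEGs. The number of DEGs depended on single libraries: it was 28 without the 24 h library of replicate 1, 34 without replicate 2 and 37 without replicate 3 of that group, and 47 and 37 without untreated replicates 2 and 3. It was 105 without untreated replicate 1.

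In each of those 6 fits with a library left out, 18 of the 114 genes remained DEGs. The 16 higher ones were Apod, Ccl6, Cmip, Crip2, Ece1, Eef2, Eng, Fkbp5, Galnt15, Hspg2, Map3k6, Mt1, Mt2, Mthfd2, Rbm38 and Unc45a, and the 2 lower ones were Nrep and Tgfb2. With GC content corrected, 16 of the 18 were still called, 14 higher and both lower ones, and Eng and Unc45a were not. Genes of this set that the naming rule does not cover, such as Galnt15, Apod and Ccl6, were named after their values were seen. The same holds for Jund, Pfn1 and Loxl1, which are given later for their calls on GC-corrected values.

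Mt1 and Mt2, neighbouring genes for the small cysteine-rich proteins that bind zinc and copper, were among the clearest of the higher DEGs. Mt2 (chr8:94172664-94173568) had normalised counts of 13.96, 23.1 and 17.9 untreated and 104, 176 and 89 at 24 h, with a log2 fold change of 2.68 (SE 0.32, adjusted p = 0.00034). Mt1 (chr8:94179082-94180327) had normalised counts of 32.9, 55.8 and 33.6 untreated and 148, 193 and 138 at 24 h, with a log2 fold change of 1.99 (SE 0.30, adjusted p = 0.0026). For both genes the lowest treated library stood more than 2-fold above the highest untreated library. The increase was already present at 2 h of Ang-II, where the log2 fold changes against untreated were 2.43 and 1.55, and it was larger at 6 h, at 3.72 and 2.99. In Cn-Ctl at 24 h the log2 fold changes were 3.68 for Mt2 and 1.96 for Mt1, and the difference between genotypes had adjusted p = 0.48 and 1.0. Metallothionein genes are known to be induced by metals through metal response elements and by glucocorticoids.

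The RefSeq promoter windows of both genes (GRCm38.p6, 250 bases before to 50 after the start, plus strand) are shown because Mt1 and Mt2 rose together. They lie at chr8:94178839-94179138 for Mt1 and chr8:94172368-94172667 for Mt2. Capitals mark matches on either strand to TGCACNC or TGCGCNC, the core letters of the metal response element, spellings that cannot match at the same position and that were chosen after the data were seen.
Mt1: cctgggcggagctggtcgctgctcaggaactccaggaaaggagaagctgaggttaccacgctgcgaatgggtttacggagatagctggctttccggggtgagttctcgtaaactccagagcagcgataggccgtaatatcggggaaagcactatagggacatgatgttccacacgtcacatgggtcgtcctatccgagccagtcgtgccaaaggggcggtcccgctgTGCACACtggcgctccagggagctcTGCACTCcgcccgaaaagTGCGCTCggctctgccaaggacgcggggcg
Mt2: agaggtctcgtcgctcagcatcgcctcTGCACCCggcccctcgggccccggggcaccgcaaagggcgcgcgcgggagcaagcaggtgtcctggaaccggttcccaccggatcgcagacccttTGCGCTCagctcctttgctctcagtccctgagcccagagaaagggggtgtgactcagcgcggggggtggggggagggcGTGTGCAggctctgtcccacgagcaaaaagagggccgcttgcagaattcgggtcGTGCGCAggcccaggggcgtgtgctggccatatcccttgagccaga
The Mt1 window holds 3 matches and the Mt2 window holds 4. Of 32851 promoter windows of 27025 genes, 25.7% held at least 1 match and 1.97% held 3 or more. A match is a description of the letters and not a measured binding site.

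Of the gene lists examined, the glucocorticoid-responsive genes had the largest share of higher DEGs. Of 19 measured members, 5 rose (Fkbp5, Mt1, Mt2, Map3k6 and Klf15) and 0 fell, against 0.638% and 0.153% of all genes. The median log2 fold change was 0.57 against -0.00 over all genes. In Cn-Ctl at 24 h 6 of the 19 rose, and the median difference between genotypes was -0.03. Within SM-Cn-/- the GC correction left 4 of the 5 calls, Klf15 being lost at adjusted p = 0.064. Fkbp5 (chr17:28399094-28517527), a co-chaperone of steroid receptors that glucocorticoids induce, had normalised counts of 22.5, 42.5 and 18.3 untreated and 101, 141 and 131 at 24 h, with a log2 fold change of 2.22 (SE 0.28, adjusted p = 0.00034). Map3k6, a kinase of the MAP kinase cascade, had 11.3, 24.6 and 12.2 untreated and 42.1, 50.3 and 45.5 at 24 h (1.57, adjusted p = 0.0074). Klf15, a metabolic transcription factor, had 34.7, 54.99 and 24.1 and 83.4, 64.3 and 101 (1.17, adjusted p = 0.021). The groups of these genes did not overlap. Other well known members did not pass the test, and their groups overlapped: Tsc22d3 (GILZ) had 77.1, 56.3 and 27.1 untreated and 110.0, 47.3 and 104 at 24 h (0.73, adjusted p = 0.32). Sgk1 had 67.7, 68.5 and 51.8 and 135, 67.4 and 86.6 (0.57, adjusted p = 0.38). Zbtb16 stood at 39.1, 34.2 and 119 at 24 h, the highest value coming from replicate 3 alone. In 10 of the 19 genes the unadjusted p was under 0.05, all with higher values at 24 h, against 1067 higher of all 14424 genes. Both edgeR and DESeq2 called 5 of the 19 higher and 0 lower.

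The other large increases were in genes of unrelated known functions. Mthfd2 (chr6:83305691-83325908), a mitochondrial enzyme of folate metabolism, had 9.18, 12.6 and 12.7 untreated and 66.98, 68.7 and 37.9 at 24 h, with a log2 fold change of 2.25 (SE 0.31, adjusted p = 0.0011). Mfsd2a (chr4:122946850-122961188), a transporter of lysophosphatidylcholine, had 1.27, 0.128 and 0.112 untreated and 3.56, 7.95 and 9.06 at 24 h, with a log2 fold change of 2.97 (SE 0.57, adjusted p = 0.015). Untreated replicates 2 and 3 had no read of Mfsd2a, so that its fitted fold change depends on the added constant. Gpnmb (chr6:49036546-49070929), a transmembrane glycoprotein known from macrophages and melanocytes, had 11.6, 2.42 and 5.28 and 63.1, 51.2 and 21.8, with a log2 fold change of 2.83 (SE 0.57, adjusted p = 0.021). Angptl7 (chr4:148495183-148500460), a secreted angiopoietin-like protein, had 15.01, 17.99 and 6.18 and 80.1, 112 and 68.3, with a log2 fold change of 2.78 (SE 0.52, adjusted p = 0.014). In each of these genes all treated libraries lay above the untreated ones. Mfsd2a and Gpnmb remained DEGs in 2 of the 6 fits with a library left out and Angptl7 in 3.

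Rbm38 (chr2:173020498-173034734), an RNA-binding protein that p53 induces, had 1.12, 0.638 and 0.786 untreated and 6.81, 6.10 and 6.76 at 24 h, with a log2 fold change of 2.40 (SE 0.38, adjusted p = 0.0037). Cmip, an adaptor of T-cell signalling, had 7.84, 2.68 and 3.93 and 21.8, 24.6 and 17.9 (2.15, adjusted p = 0.0037). Both genes kept their call in every fit with a library left out, although their counts were low. The other named higher DEGs were low-count genes as well. Jag2, a Notch ligand, had 1.12, 0.893 and 2.13 untreated and 10.1, 7.49 and 6.67 at 24 h (2.22, adjusted p = 0.021). Gabrq, a subunit of the GABA-A receptor, had 2.91, 0.128 and 3.26 and 6.33, 11.97 and 7.77 (2.15, adjusted p = 0.044). Untreated replicate 2 held no read of Gabrq or Zscan25. Armc6, an armadillo repeat protein, had 2.31, 0.893 and 0.561 and 7.30, 6.72 and 7.04 (2.22, adjusted p = 0.032). Zscan25, a zinc finger gene, had 1.12, 0.128 and 0.786 and 5.73, 4.09 and 5.38 (2.34, adjusted p = 0.038). Jag2, Armc6 and Zscan25 did not pass after the GC correction (adjusted p = 0.11, 0.075 and 0.15).

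Tgfb2 (chr1:186622792-186705989), which encodes the ligand TGF-β2, was the DEG with the smallest p among the lower genes. Its normalised counts were 117, 82.3 and 84.6 untreated and 39.3, 36.1 and 30.8 at 24 h, with a log2 fold change of -1.39 (SE 0.18, adjusted p = 0.00034), and all treated libraries lay under the lowest untreated one. Nrep (chr18:33437019-33464029), the neuronal regeneration related protein, had 54.3, 60.9 and 67.7 untreated and 13.3, 15.5 and 15.1 at 24 h, with a log2 fold change of -2.02 (SE 0.28, adjusted p = 0.0010). Igfbp5 (chr1:72857932-72874884), a secreted binding protein of insulin-like growth factors, had 549, 391 and 319 and 182, 180.5 and 92.04, with a log2 fold change of -1.50 (SE 0.26, adjusted p = 0.0083). All 3 genes were lower in each treated library than in any untreated library, and the call of Igfbp5 was lost in 1 of the 6 fits with a library left out. Itih5, a hyaluronan-associated heavy chain, had 46.4, 20.5 and 32.2 untreated and 7.54, 16.3 and 7.96 at 24 h (-1.61, adjusted p = 0.020). Hmgn2, a nucleosome-binding protein, had 96.7, 99.4 and 91.3 and 49.7, 55.5 and 38.04 (-1.01, adjusted p = 0.021). Its relative Hmgn1 had 249.6, 218 and 216 and 147, 134 and 127 (-0.74, adjusted p = 0.0089).

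The remaining named lower DEGs included genes with near-identical copies or overlapping neighbours, whose reads the counting may have shared out, and these are uncertain. Gm14308, a predicted gene of a large cluster on chromosome 2, had 19.9, 21.6 and 9.99 untreated and 0.784, 0.0772 and 0.0460 at 24 h (-4.50, adjusted p = 0.015). Treated replicates 2 and 3 held no read of it, and in untreated Cn-Ctl it stood at 0.0728 and 2.65. Olfr224, an olfactory receptor gene, had 52.9, 77.2 and 70.9 and 11.2, 26.02 and 18.6 (-1.88, adjusted p = 0.0076). Slx1b, a subunit of a structure-specific endonuclease, had 111, 159 and 148 and 56.7, 57.4 and 70.8 (-1.16, adjusted p = 0.030). Of single-copy genes, Lctl, a lactase-like protein, had 26.7, 8.55 and 21 and 2.59, 4.09 and 1.70 (-2.47, adjusted p = 0.029). Tmem45b, a transmembrane protein gene, had 163, 36.1 and 123 and 21.3, 29.7 and 15.04 (-2.06, adjusted p = 0.030). Mtx3, of the mitochondrial outer membrane, had 34.6, 35.8 and 38.5 and 13.3, 15.7 and 23.3 (-1.07, adjusted p = 0.047). Sec61a2, a subunit of the ER translocon, had 29.2, 33.04 and 39.4 and 14.8, 15.7 and 19 (-1.02, adjusted p = 0.024). After the GC correction Mtx3 (adjusted p = 0.15) and Sec61a2 (0.054) no longer passed.

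**Figure D2:**
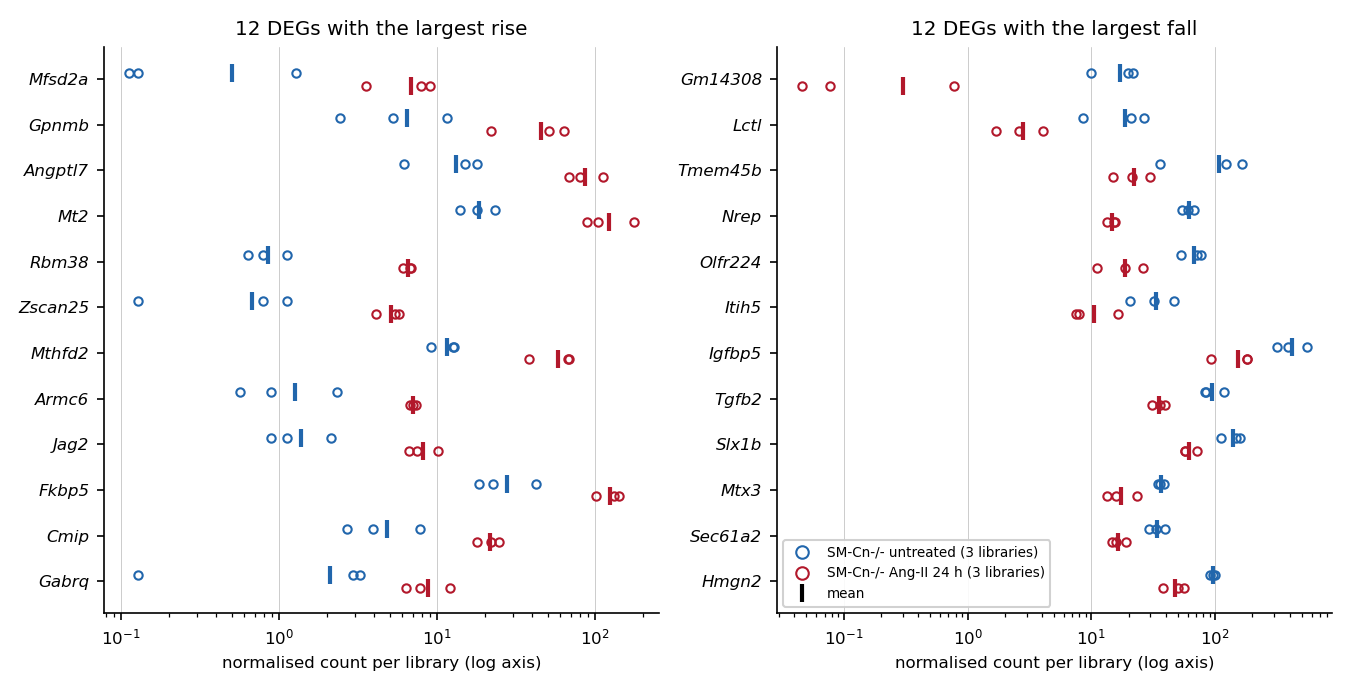
Normalised counts (x axis, log scale) of the 12 higher and 12 lower named DEGs in each of the 6 SM-Cn-/- libraries, with untreated and 24 h libraries in separate colours, a bar at each group's mean and 1 gene per line. The libraries of the groups do not overlap in any of these genes. The points farthest to the left in Mfsd2a, Zscan25, Gabrq and Gm14308 are libraries with no read of the gene.

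Some ribosomal protein genes rose. Of 84 cytosolic ribosomal protein genes, 6 rose (among them Rps9, Rps29, Rpl18, Rpl35 and Rplp0) and 0 fell, against 0.638% and 0.153% of all genes. The median log2 fold change of the 84 was 0.38, and 71 had a value above 0, against 7190 of all 14424 genes. In 48 of the 84 the libraries of the groups did not overlap, against 19.6% of all genes. Rplp0, the stalk protein of the large subunit, had 306, 259 and 233 untreated and 470.3, 472 and 516 at 24 h, with a log2 fold change of 0.88 (SE 0.19, adjusted p = 0.030). Rpl18 had 91.01, 96.3 and 88.8 and 193, 192 and 239 (1.17, adjusted p = 0.021). The elongation factor Eef2, outside the list and named after its values were seen, had 661, 627 and 588 and 1428, 1257 and 1449.7 (1.14, adjusted p = 0.0037). In these genes the treated libraries lay in a narrow band above the untreated ones. On GC-corrected values 7 of the 84 rose, and their median was 0.34. Ribosomal protein genes have many processed pseudogenes, and how their reads were divided by the counting is not known.

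A few genes of vessel tone rose. Of 34 vasoactive and calcium handling genes, 2 rose and 0 fell, with a median of -0.09. Ece1 (chr4:137862237-137965229), the enzyme that makes active endothelin, had 78.9, 55.2 and 72.4 untreated and 128, 144 and 185 at 24 h, with a log2 fold change of 1.14 (SE 0.18, adjusted p = 0.0037). Nos3, the endothelial nitric oxide synthase, had 16.9, 20.5 and 15.4 and 41.2, 49.96 and 45.03 (1.35, adjusted p = 0.021), and did not pass after the GC correction (adjusted p = 0.072), which left Ece1 as the 1 call of the list. The connexin genes Gja4 and Gja5 had log2 fold changes of 1.34 and 1.30 (adjusted p = 0.12 and 0.18), and Stim1, the calcium sensor of the endoplasmic reticulum, had a log2 fold change of 0.59 (adjusted p = 0.055). Adm, the vasodilator peptide adrenomedullin of the glycolysis and hypoxia list (1 of 25 rose), had 11.9, 13.4 and 7.07 and 48.8, 43.8 and 34.4 (1.96, adjusted p = 0.039). Of 15 renin-angiotensin genes 0 were DEGs in limma or edgeR and 1 was higher in DESeq2, while 3 had an unadjusted p under 0.05. Ace, the angiotensin converting enzyme, had 241, 242 and 206 and 432, 483 and 495 (1.03, adjusted p = 0.084). Agtr1a, the AT1 receptor, had 4.85, 2.68 and 3.71 and 1.87, 3.32 and 4.28 (-0.24, adjusted p = 0.92).

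Endothelial markers, a list that includes Nos3 itself, were higher as well. The summed normalised count of 12 endothelial markers was 685 to 925 in the untreated libraries and 1362 to 1408 at 24 h, without overlap. It was 433 to 545 and 604 to 676 in Cn-Ctl. Of the 12 markers, 10 had a positive log2 fold change, against 7190 of all 14424 genes. In 7 of the 12 the groups did not overlap, against 19.6% of all genes. The median of the 12 was 0.81, and only Nos3 was a DEG. With GC content corrected, 0 of the 12 were DEGs and their median was 0.66. Pecam1, which held most of the sum at 24 h, had 481, 449 and 382 untreated and 848, 788 and 777 at 24 h (0.88, adjusted p = 0.11). Vwf had 64.9, 47.1 and 63.2 and 137, 127 and 139 (1.21, adjusted p = 0.076), while Kdr had 45.9, 6.76 and 31.1 and 18.03, 24.6 and 10.3 (-0.36, adjusted p = 0.88). In bulk tissue more cells of a type and more RNA per cell cannot be told apart, and the part of the endothelial share in the higher values of Nos3, Ece1, Eng and Hspg2 was not tested. Red cell genes were also higher in every treated library: 7 of 8 listed were measured, and their sum was 77.4 to 455 untreated and 505 to 2263 at 24 h. Of the 7, 0 were DEGs in limma, edgeR or DESeq2. All 7 had an unadjusted p under 0.05 in limma, against 1660 of all 14424 genes.

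The summed smooth muscle markers were 23297 to 26966 untreated and 26834 to 30024 at 24 h and all 10 were expressed in every library. Fibroblast markers summed to 2094 to 3342 and 2976 to 4347. Macrophage markers summed to 193 to 315 and 218 to 353. These ranges overlapped, as did those of adipocyte markers, at 1176 to 5126 and 3119.6 to 5101. Markers of neutrophils, lymphocytes, striated muscle, nerve and mesothelium summed to under 100 in each of the 6 libraries.

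**Figure D3:**
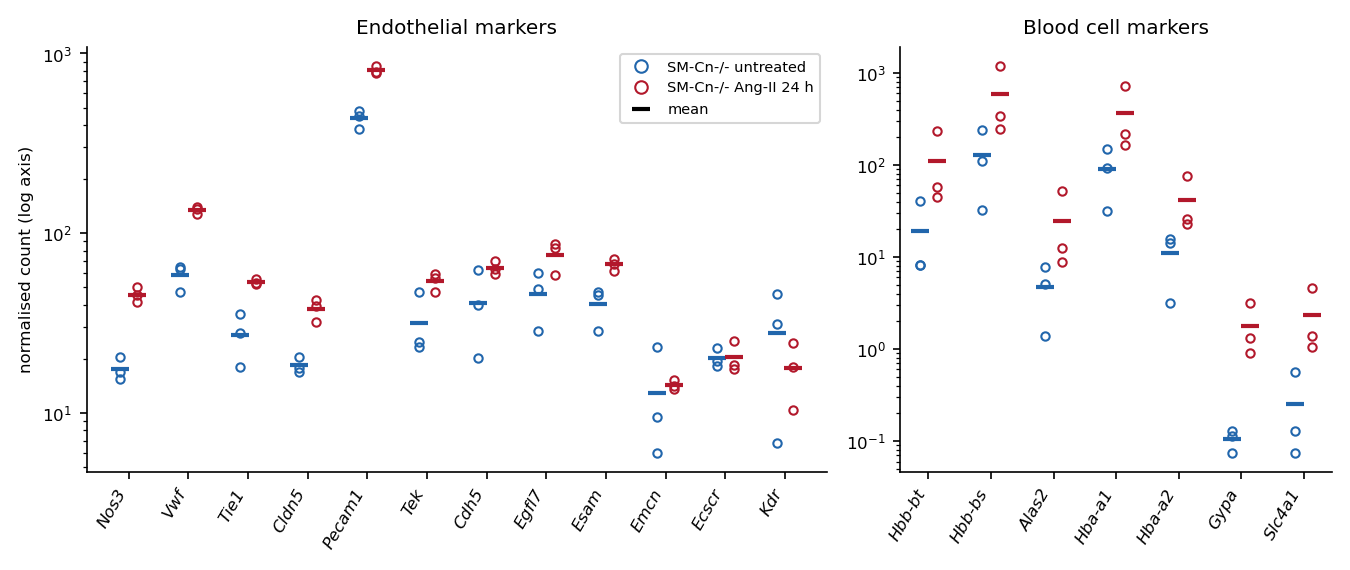
Normalised counts (log axis) of the 12 endothelial and 7 red cell markers in the SM-Cn-/- libraries, untreated and at 24 h of Ang-II, 1 point per library with a bar at each group's mean. Pecam1 and Vwf are higher in all 3 treated libraries, Kdr and Ecscr overlap, and the red cell genes are highest in treated replicate 2.

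Of 28 genes of TGF-β and BMP signalling, 2 rose and 1 fell, with a median of 0.13. The fall was that of Tgfb2. Eng, the co-receptor endoglin, had 52.2, 34.8 and 60.3 untreated and 115, 122 and 107 at 24 h, with a log2 fold change of 1.25 (SE 0.21, adjusted p = 0.0069), and Id3, a target of BMP signalling, had 45.8, 53.5 and 48.2 and 117, 98.9 and 154 (1.30, adjusted p = 0.021). Eng is an endothelial gene as well. After the GC correction Eng had adjusted p = 0.054 and 1 gene of the list rose and 1 fell.

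Few matrix genes passed the test. Of 21 collagen chains, 1 rose and 1 fell. Col18a1, the basement membrane collagen that carries endostatin, had 477, 581 and 497 untreated and 1081, 924 and 1101 at 24 h (1.00, adjusted p = 0.042), which did not pass after the GC correction (adjusted p = 0.18). Col6a3, a chain of microfibrillar collagen, had 275, 344 and 358 and 198, 212 and 161 (-0.77, adjusted p = 0.046). The main fibrillar chain gene Col1a1 had 534, 734 and 772 and 835, 995 and 495 (0.15, adjusted p = 0.89), with wide overlap. GC-corrected values gave 0 higher and 2 lower collagen genes, Col6a3 and Col15a1 (adjusted p = 0.048). Of 20 genes of collagen processing 0 rose and 1 fell: Crtap, needed for the 3-hydroxylation of collagen prolines, had 143, 136 and 122 and 73.7, 79 and 88.2 (-0.73, adjusted p = 0.015). Loxl1, a cross-linking enzyme, was a second lower gene of that list on GC-corrected values (adjusted p = 0.036), against adjusted p = 0.91 without the correction. Of 21 proteases and inhibitors 1 rose: Mmp3, stromelysin, had 63.5, 34.1 and 21 and 174, 152 and 95.2 (1.91, adjusted p = 0.049). Of 28 matrix glycoproteins 0 were DEGs in limma or edgeR and 1 was lower in DESeq2, and 3 higher and 2 lower had an unadjusted p under 0.05. Outside the lists and named after their values were seen, the basement membrane genes Hspg2 (perlecan, 1.17, adjusted p = 0.0083) and Lamb2 (1.10, adjusted p = 0.032) rose and Fstl1, a secreted follistatin-like protein, fell (-0.81, adjusted p = 0.020). Lamb2 did not pass after the GC correction (adjusted p = 0.069), and neither Lamb2 nor Col18a1 was called in any of the 6 fits with a library left out. The medians of the collagen, collagen processing and matrix glycoprotein lists lay between -0.04 and 0.07 and changed sign, the first when a library was left out, the second with the GC correction and the third with quantile normalisation among others, so no direction is given for them.

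The contractile genes gave no call. Of 20 smooth muscle contractile genes 0 were DEGs in limma, edgeR and DESeq2, and 3 had an unadjusted p under 0.05, all higher. Acta2, smooth muscle actin, had 11496, 11629.5 and 9710.0 untreated and 12409, 10827 and 10009 at 24 h (0.02, adjusted p = 0.99). Myh11, smooth muscle myosin, had 4484, 5186 and 4630.0 and 4447, 4389 and 4589.6 (-0.09, adjusted p = 0.94). Of 25 actin cytoskeleton genes 0 were DEGs in limma or edgeR and 1 was higher in DESeq2, and 4 higher and 1 lower had an unadjusted p under 0.05. On GC-corrected values Pfn1, the actin-binding protein profilin, was lower in the actin list (adjusted p = 0.029, against 0.72 uncorrected). The medians of both lists changed sign under other scalings.

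Of 29 cytokine, chemokine and adhesion genes 3 rose and 0 fell, against 0.638% and 0.153% of all genes. Il4ra, a receptor chain for interleukin-4 and interleukin-13, had 14.3, 4.47 and 5.95 untreated and 31.1, 24.2 and 26.3 at 24 h (1.82, adjusted p = 0.013). Osmr, the oncostatin M receptor, had 31.1, 33.8 and 28.4 and 67.7, 77.9 and 46.2 (1.00, adjusted p = 0.021). Icam1, an adhesion molecule, had 26.5, 14.7 and 14.9 and 48.1, 43.8 and 33.2 (1.17, adjusted p = 0.045), and did not pass after the GC correction (adjusted p = 0.15). Ccl6, a chemokine outside the list, had 11.1, 14.9 and 9.32 and 48.4, 50.3 and 31.8 (1.84, adjusted p = 0.0026). Outside the list, Serpina3n, an acute phase protease inhibitor, had 35.8, 40.2 and 39.6 and 121, 113 and 63.1 (1.30, adjusted p = 0.030), with adjusted p = 0.052 after the GC correction. Of 25 immediate early genes 1 rose, Maff, with 19.9, 18.2 and 10.9 and 44.3, 44.1 and 39.7 (1.40, adjusted p = 0.021). With the GC correction this list had 0 higher and 1 lower call instead: Maff was lost (adjusted p = 0.10) and Jund, a subunit of AP-1, was lower (adjusted p = 0.011, against 0.66 uncorrected). Fos had 12.8, 21.1 and 18.98 and 20.9, 14.6 and 8.79 (-0.30, adjusted p = 0.86).

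Of 25 genes of the NRF2 and redox list 5 rose and 0 fell, against 0.638% and 0.153% of all genes. Besides Mt1 and Mt2, which this list shares with the glucocorticoid list, these were Ftl1, Gclm and Cyba. Ftl1, the ferritin light chain, had 163, 156 and 167 untreated and 352, 351 and 312 at 24 h (1.06, adjusted p = 0.021). Gclm, the modifier subunit of glutathione synthesis, had 56.96, 76.9 and 60.5 and 131, 138 and 113 (0.97, adjusted p = 0.039). Cyba, a subunit of NADPH oxidase, had 9.33, 16.5 and 11.3 and 26.8, 27.4 and 33.3 (1.24, adjusted p = 0.042), and did not pass after the GC correction (adjusted p = 0.099). The list's median log2 fold change was 0.05. Of 23 fatty acid genes 1 rose: Ucp2, a mitochondrial carrier, had 26.4, 18.2 and 17.9 and 50.8, 68.8 and 32.3 (1.22, adjusted p = 0.026), and did not pass after the GC correction (adjusted p = 0.10), which left 0 calls in the list. Of 35 oxidative phosphorylation genes 0 were DEGs in limma, edgeR and DESeq2, and 1 had an unadjusted p under 0.05. Of 44 cell cycle genes 0 were DEGs in limma or edgeR and 1 was higher in DESeq2, and 1 had an unadjusted p under 0.05. Mki67, a proliferation marker, had 3.51, 4.47 and 2.81 and 1.51, 1.31 and 1.15 (-1.15, adjusted p = 0.61).

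No gene of the calcineurin pathway passed the test within SM-Cn-/-. Of 19 such genes 0 were DEGs in limma or edgeR and 1 was lower in DESeq2, and 1 higher and 1 lower had an unadjusted p under 0.05. The catalytic subunit genes Ppp3ca, Ppp3cb and Ppp3cc had log2 fold changes of -0.23, -0.13 and -0.29 (adjusted p = 0.62, 0.88 and 0.81). Rcan1, a feedback inhibitor of calcineurin that NFAT induces, had 38.3, 36.1 and 30.4 untreated and 30.7, 33.9 and 28.6 at 24 h (-0.16, adjusted p = 0.91). Ier3, Gja1, Ptgs2 and Smad2, genes the study followed up, had log2 fold changes of 0.10, -0.51, -0.50 and -0.12 (adjusted p = 0.94, 0.32, 0.77 and 0.95).

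**Figure D4:**
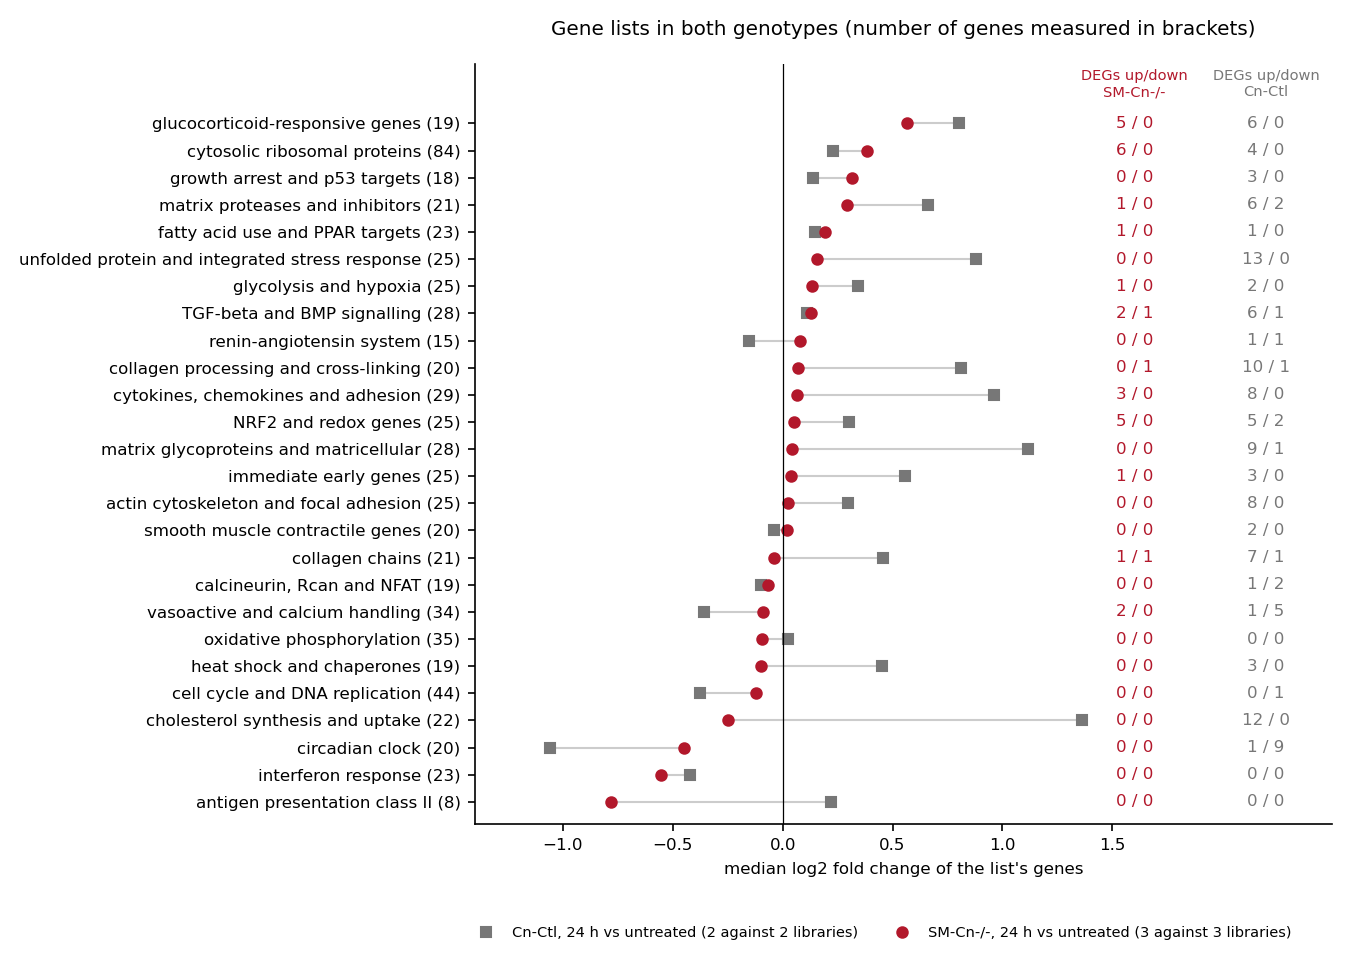
Median log2 fold change at 24 h of Ang-II against untreated (x axis) of each gene list in SM-Cn-/- and in Cn-Ctl, with the number of DEGs higher and lower in SM-Cn-/- and Cn-Ctl printed beside each list. The glucocorticoid list has a median of 0.57 in SM-Cn-/- and 0.80 in Cn-Ctl, while cholesterol synthesis stands at -0.25 and 1.36.

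Within SM-Cn-/- the state at 24 h differed from that at 2 h in 526 genes (3.65%), 295 higher (2.05%) and 231 lower (1.6%) at 24 h, and from that at 6 h in 44 genes (0.305%), 7 higher (0.0485%) and 37 lower (0.257%). After the GC correction the split against 2 h was 75 higher and 211 lower. Tgfb2 was not called at the earlier times: its normalised counts were 153, 111 and 115 at 2 h and 99.4, 86.5 and 74.1 at 6 h, with log2 fold changes against untreated of 0.42 and -0.12 (adjusted p = 0.31 and 0.80). The 24 h values were lower than both, by log2 differences of -1.81 (adjusted p = 1.1e-05) and -1.28 (0.0021). Fkbp5 went the other way in time, with 287, 410.2 and 343 at 2 h and 251, 287 and 139 at 6 h, all above its values at 24 h but for the lowest library at 6 h, which lay within them. Its log2 fold change against untreated was 3.70 at 2 h, 3.03 at 6 h and 2.22 at 24 h. The glucocorticoid list as a whole had 10 of 19 genes higher at 2 h, 12 at 6 h and 5 at 24 h than untreated. Over all 14424 genes, 142 were higher at 2 h, 216 at 6 h and 92 at 24 h. Compared directly, 4 of the 19 genes were lower at 24 h than at 2 h and 2 were lower than at 6 h. These comparisons share the untreated or the 24 h libraries and are set side by side only.

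Beside Tgfb2, the genes with the smallest adjusted p against 2 h were Map3k7cl (-1.30, adjusted p = 0.00081), Cyth3 (-1.34, adjusted p = 0.00081) and Myoz2 (-1.58, adjusted p = 0.00082), lower at 24 h, and Rrad, a small GTPase of the Rem family, higher (1.91, adjusted p = 0.00082). Against 6 h they were Samhd1 (-1.21, adjusted p = 0.0021), the small heat shock protein gene Hspb1 (-2.20, adjusted p = 0.0025), the clock repressor Cry1 (-2.71, adjusted p = 0.0026) and Map3k7cl (-1.14, adjusted p = 0.0026), all lower at 24 h. Ribosomal protein genes were higher at 24 h than at 2 h in 21 of 84 cases, against 2.05% of all genes. In this comparison the log2 fold change correlated with GC content at r = 0.52. Of its 295 higher calls, 63 stayed after the GC correction, and how many of the 21 were among them was not examined. The counts of 526 and 44 depended on single libraries. Against 2 h the count was 335, 157 and 137 without 24 h replicates 1, 2 and 3, and 71, 124 and 1069 without 2 h replicates 1, 2 and 3. Against 6 h it was 12, 12 and 21 without the 24 h replicates and 156, 9 and 15 without the 6 h replicates in the same order.

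**Figure D5:**
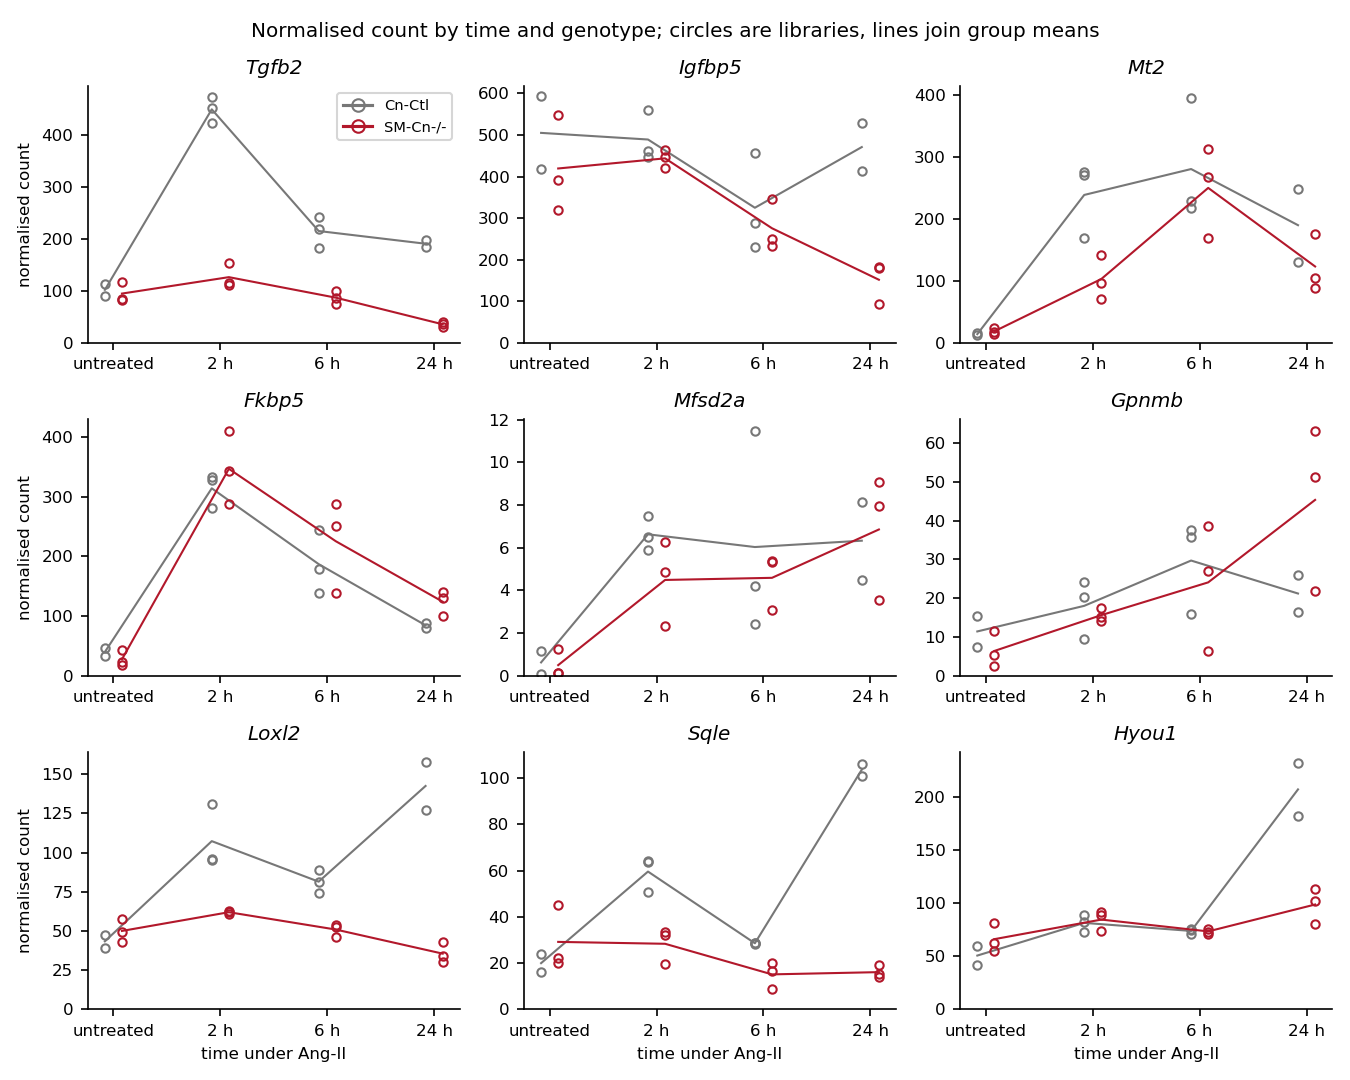
Normalised counts of 9 genes in each library of SM-Cn-/- and Cn-Ctl (y axis, linear from 0) untreated and at 2, 6 and 24 h of Ang-II (x axis), with lines joining the group means. Tgfb2 and Igfbp5 are lower in SM-Cn-/- at 24 h than untreated, Mt2, Fkbp5 and Mfsd2a are higher, and Loxl2, Sqle and Hyou1 are higher at 24 h in Cn-Ctl than in SM-Cn-/-.

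The 24 h response was set against that of Cn-Ctl by testing the difference of the changes. It differed between genotypes in 74 genes (0.513%), of which 23 had the higher change in SM-Cn-/- (0.159%) and 51 the lower (0.354%). Cn-Ctl itself had 810 DEGs at 24 h (5.62%). Tgfb2 led again: in Cn-Ctl its normalised counts were 89.6 and 114 untreated and 184 and 197 at 24 h (0.91, adjusted p = 0.014), so the gene rose in Cn-Ctl and fell in SM-Cn-/-, with a difference of -2.31 (SE 0.28, adjusted p = 0.00048). Loxl2, a collagen cross-linking enzyme, had 49.2, 57.8 and 42.8 and 42.6, 33.6 and 30.03 in SM-Cn-/- and 47.4 and 39.1 and 158 and 127 in Cn-Ctl, a difference of -2.20 (SE 0.28, adjusted p = 0.00051). The membrane-binding annexin Anxa2 (-1.85, adjusted p = 0.00063) and Fxyd5, a regulator of the sodium pump (-2.25, adjusted p = 0.0030), followed. The genes called in all 10 fits that left out a library were Anxa2, Fxyd5, Loxl2, Sqle, Tgfb2 and Tpm4.

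Of the DEGs within SM-Cn-/-, Tgfb2, Fstl1, Galnt15 and Serpina3n also passed the test of the difference. Galnt15, an enzyme that starts mucin-type O-glycans, had 101, 99.6 and 96.5 untreated and 383, 263 and 244 at 24 h in SM-Cn-/-, with a log2 fold change of 1.55 (SE 0.24, adjusted p = 0.0037). In Cn-Ctl it had 94.2 and 91.3 and 90.4 and 37.7 (-0.66, adjusted p = 0.21), and the difference was 2.21 (adjusted p = 0.010). Serpina3n rose in both genotypes, by 1.30 in SM-Cn-/- and 3.41 in Cn-Ctl, a difference of -2.11 (0.031). Fstl1 had a difference of -1.13 (0.047). In the 10 fits that left out a library, Galnt15 was called in 7, Serpina3n in 2 and Fstl1 in 0. The other DEGs did not pass the test of the difference, which does not make the responses equal, as the median SE of a difference was 0.51 with 2 Cn-Ctl libraries a group.

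Cholesterol synthesis was the list with the most calls in that test. Of 22 genes 7 had a lower change in SM-Cn-/- (among them Sqle, Idi1, Fdps, Cyp51, Msmo1 and Hsd17b7) and 0 a higher one. Over all genes these shares were 0.354% and 0.159%. The median difference was -1.46 against 0.04 over all genes. Within SM-Cn-/- 0 of the 22 were DEGs in limma or edgeR and 1 was lower in DESeq2, and 1 higher and 2 lower had an unadjusted p under 0.05, with a median of -0.25. In Cn-Ctl 12 rose and 0 fell, against 465 and 345 of all 14424 genes, with a median of 1.36. Sqle, squalene epoxidase, had 44.9, 22.3 and 20.1 and 14.05, 18.9 and 15.04 in SM-Cn-/- and 23.8 and 15.97 and 101 and 106 in Cn-Ctl, a difference of -3.14 (SE 0.47, adjusted p = 0.0030). Msmo1, a sterol demethylation enzyme, had 69.4, 30.5 and 26.2 and 18.8, 21.9 and 21.7 in SM-Cn-/- and 36.2 and 30.8 and 107 and 113 in Cn-Ctl, a difference of -2.58 (0.0081). In both genes the high values were those of treated Cn-Ctl. These genes are known targets of the SREBP factors, which bind sterol regulatory elements.

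Promoter windows of a pair of the list's genes are shown for that reason (RefSeq, GRCm38.p6). Hmgcs1, the HMG-CoA synthase, lies at chr13:119690101-119690400 on the plus strand, and Msmo1 at chr8:64733529-64733828 on the minus strand. Capitals mark TCACNCCA, the core of the sterol regulatory element searched on both strands, again chosen after the data were seen.
Hmgcs1: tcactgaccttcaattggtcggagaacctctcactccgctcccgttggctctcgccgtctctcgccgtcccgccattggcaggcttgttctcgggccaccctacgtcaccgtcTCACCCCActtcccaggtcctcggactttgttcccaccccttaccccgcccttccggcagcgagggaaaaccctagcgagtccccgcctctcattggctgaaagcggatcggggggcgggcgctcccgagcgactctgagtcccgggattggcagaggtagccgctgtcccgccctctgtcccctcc
Msmo1: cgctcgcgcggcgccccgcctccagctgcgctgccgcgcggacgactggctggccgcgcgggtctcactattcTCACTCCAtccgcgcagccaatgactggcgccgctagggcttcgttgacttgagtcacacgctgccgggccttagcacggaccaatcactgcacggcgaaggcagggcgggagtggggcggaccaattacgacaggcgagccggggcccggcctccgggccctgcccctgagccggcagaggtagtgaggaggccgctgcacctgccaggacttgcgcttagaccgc
Each window holds 1 match, so the pair does not stand for the list, in which most windows held none. Windows were found for 14 of the 22 genes, and 3 of these 17 windows (17.6%) held a match, against 4.36% of all 32851. Hmgcs1 itself had a difference between genotypes of -1.49 that missed the threshold (adjusted p = 0.090).

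Of 25 genes of the unfolded protein and integrated stress response, 3 had a lower change in SM-Cn-/- (Hspa5, Manf and Hyou1), against 0.354% of all genes. The GC correction gave 5. Without it the median difference was -0.88, against 0.04 over all genes. Within SM-Cn-/- 0 were DEGs in limma, edgeR and DESeq2, and 5 had an unadjusted p under 0.05, all higher. In Cn-Ctl 13 rose, against 465 of all 14424 genes. Hyou1, an ER chaperone, had 80.9, 54.99 and 62.3 and 80.2, 102 and 114 in SM-Cn-/- and 41.9 and 59.2 and 182 and 233 in Cn-Ctl, a difference of -1.46 (SE 0.28, adjusted p = 0.023). Of the matrix glycoproteins 4 of 28 had a lower change in SM-Cn-/-: Tnc, Thbs1, Postn and Prg4. Thbs1, thrombospondin, had 88.9, 82.5 and 86.1 and 159, 97.4 and 50.4 in SM-Cn-/- and 42.3 and 33.7 and 456 and 501 in Cn-Ctl, a difference of -3.55 (0.0074). In the actin list Flnc, Tpm4 and Ankrd1 had lower changes (3 of 25), and in the collagen list Col5a2 and Col15a1 (2 of 21). The share of lower changes over all genes, 0.354%, applies beside each of these counts.

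The count of 74 depended on the libraries used. It was 375 without Cn-Ctl 24 h replicate 2, 9 without Cn-Ctl 24 h replicate 3, and 10 each without Cn-Ctl untreated replicate 2 or 3. It was 27 and 34 without SM-Cn-/- 24 h replicates 1 and 2, and 29 without SM-Cn-/- untreated replicate 1. After the GC correction it was 158, 62 higher and 96 lower.

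Set directly against Cn-Ctl at 24 h, SM-Cn-/- differed in 713 genes (4.94%), 327 higher (2.27%) and 386 lower (2.68%). Untreated, the genotypes differed in 1 gene higher and 1 lower, while 757 genes had an unadjusted p under 0.05 in limma. That comparison had 3 against 2 libraries and a median SE of 0.36, so it does not make the untreated genotypes equal. Tgfb2 was lower (-2.42, adjusted p = 3.9e-07), as were Loxl2 (-2.00, adjusted p = 6.5e-06) and Anxa2 (-1.57, adjusted p = 2.4e-05). Rcan1 was lower too, with 30.7, 33.9 and 28.6 in SM-Cn-/- and 75.3 and 158 in Cn-Ctl (-1.80, adjusted p = 0.0045), and so were Gja1, a connexin (-1.44, adjusted p = 0.00084), and Ptgs2, cyclooxygenase-2 (-2.69, adjusted p = 0.0050). Of the cholesterol list 11 of 22 were lower and of the stress response list 8 of 25. Of the endothelial markers 4 of 12 were higher. The count was 177 without Cn-Ctl replicate 3, 1010 without Cn-Ctl replicate 2, and 416 and 383 without SM-Cn-/- replicates 1 and 2.

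A second experiment of the series, in which other mice of wild type (WT) had no or 24 h of Ang-II, gave a set of genes chosen without these libraries. It held 18 libraries of 18.98 M to 38.9 M reads, and 13738 genes were tested. Its other groups, WT at 2 h of Ang-II and mice given the calcineurin inhibitor cyclosporin A, shared the fit. No tamoxifen is described for these mice. The authors chose the treated WT mice, like treated Cn-Ctl and unlike SM-Cn-/-, for raised systolic pressure. In the values below, genotype and that selection cannot be told apart. In WT 729 genes rose more than 2-fold, and 704 of these could be looked up in this table. The median change of the 704 on the log2 scale was 1.44 in WT, 0.22 in SM-Cn-/- (0.13 to 0.30 over the 3 treated libraries) and 1.26 in Cn-Ctl (1.18 and 1.38). Of the 704, 458 (65.1%) had a positive value in SM-Cn-/- and 661 (93.9%) in Cn-Ctl. In SM-Cn-/- 25 rose and 0 fell, against 220 that rose in Cn-Ctl. The test of the difference called 38, all with the lower change in SM-Cn-/-. Over all 14424 genes 92 rose in SM-Cn-/- and 465 in Cn-Ctl, and 51 had the lower change in SM-Cn-/-. A positive value in SM-Cn-/- was found for 7190 of all genes. Of 401 genes that fell in WT, 398 were measured, with medians of -1.25 in WT, -0.23 in SM-Cn-/- and -1.17 in Cn-Ctl, and 2 of them fell in SM-Cn-/- against 141 in Cn-Ctl. The test of the difference called 12 of these 398, all with the higher change in SM-Cn-/-. Over all 14424 genes 22 fell in SM-Cn-/- and 345 in Cn-Ctl, and 23 had the higher change in SM-Cn-/-. The tables were normalised separately, and only directions and changes within a table are compared.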

How the data were processed

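RNA was poly(A)-selected from aortas pooled by 3, sequenced on an Illumina Genome Analyzer IIx, and, per the methods and the submitters' processing notes, aligned with Bowtie 0.12.7 and quantified with RSEM 1.16 against GRCm38. The signal values deposited by the authors are normalised counts, found here to be the reads of a gene plus 0.5 over a scaled library size (100% of the values came out as whole reads, tolerance 0.02). How the authors scaled the libraries and which test they used are not given in the sources used here. Groups were taken from the sample labels.

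Genes were matched to GENCODE M21 (GRCm38), and the 14424 protein-coding genes were tested. Log2 values with a pseudocount of 0.5 entered a single limma fit (version 3.58.1, R 4.3.3) with a mean for each of the 8 groups of the 22 libraries of the genotype experiment and variances moderated along the mean level, and p-values were adjusted over all genes by Benjamini and Hochberg. A fold change on this scale understates that of low genes. The filter, at least 1 in at least 2 libraries, removed 0 genes. Alternatives were other pseudocounts, filters and normalisations, edgeR 4.0.16 and DESeq2 1.42.0 on the recovered reads, a replicate block, libraries left out, and, added after the data were seen, a GC correction (lowess span 0.4). The fits were tested on simulated reads without a GC trend. Within SM-Cn-/-, 24 of 50 genes with a log2 change of 1 were called, and 18 of 50 with -1. With changes of 2 and -2, 45 and 40 of 50 were called. For the difference between genotypes the counts were 1, 3, 28 and 18 in the same order. Of 14224 unchanged genes 9 and 3 were called. P-values measure the spread between pooled libraries.

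The named genes are Ppp3r1, Ppp3ca, Ppp3cb, Ppp3cc, Rcan1, Ier3, Gja1, Ptgs2 and Smad2, the 12 largest changes in each direction among DEGs whose mean reached 5 in a group and whose groups did not overlap, the 4 members of each list with the smallest p, a few set genes, and the 5 genes with the smallest adjusted p in each other comparison. The comparison, the gene lists and the named genes were chosen with earlier results of these data known. Lists are described by counts and medians, and some genes covered by the rule or held in a list are not reported here.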

Additional observations from a re-analysis of the deposited data

Results flagged for a closer look

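The 24 h response to Ang-II differed between SM-Cn-/- and Cn-Ctl in 74 genes, by the test of the difference of the changes in limma. Named among them, with the log2 difference (SM-Cn-/- minus Cn-Ctl), were the ligand gene Tgfb2 at -2.31, and the matrix genes Col15a1 at -1.52, Loxl2 at -2.20, Prg4 at -3.42 and Postn at -1.64. Cholesterol synthesis gave Msmo1 at -2.58 and Sqle at -3.14. The ER stress genes Hyou1 and Manf stood at -1.46 and -1.20. Anxa2, Fxyd5 and the sarcomere gene Myoz2 stood at -1.85, -2.25 and -1.67. Stim1, the ER calcium sensor, had a higher change in SM-Cn-/-, at 1.07. These calls were not equally stable in the 10 fits with a library left out. Tgfb2, Loxl2, Sqle, Anxa2 and Fxyd5 were called in all 10, Msmo1 in 8, and Hyou1 and Prg4 in 6. Col15a1 and Manf were called in 4, Myoz2 in 3, Stim1 in 2 and Postn in 0.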

How the results depend on the processing

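The 24 h comparison within SM-Cn-/- gave 114 DEGs and kept within 1.5 times of that count under other pseudocounts, filters and scalings, its own groups alone, edgeR, the replicate block and the GC correction (78 to 155 over these settings), but gave 38 in limma without the intensity trend and 316 in DESeq2. With 1 library left out it gave 28 to 105. The difference between genotypes (74) gave 43 with its own groups alone, 15 without the trend, 278 in DESeq2, 158 with the GC correction and 9 to 375 with a library left out. Against 2 h (526) the count was 308 without the trend, 1213 in DESeq2, 327 with a 2-fold condition, 286 with the GC correction and 71 to 1069 with a library left out. Against 6 h (44) it was 14 with its own groups alone, 12 without the trend, 152 in DESeq2, 27 with a 2-fold condition, 81 with the GC correction and 9 to 156 with a library left out. Against Cn-Ctl (713) it was 321 with its own groups alone and 177 to 1010 with a library left out. Where a fit used fewer samples it had fewer degrees of freedom, and for the other settings the cause was not tested. The median of the genes that rose in WT moved from 0.22 to 0.12 without the 2-fold condition. The median SE of a fold change within SM-Cn-/- was 0.32 on the log2 scale, which limits what 3 pools a group can show, and low genes with few reads in the untreated libraries limit their own fold changes most.

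The replicate numbers were not taken as pairs, since in no comparison with 3 pairs did every same-numbered pair correlate above 0.1: the deviations of 24 h libraries 1, 2 and 3 correlated with those of the same number at 0.12, -0.25 and 0.03 untreated, 0.37, 0.05 and 0.40 at 2 h, and 0.46, -0.10 and 0.35 at 6 h. Within Cn-Ctl, with 2 pairs, r was 0.25 for both, and between the genotypes at 24 h it was 0.06 and 0.22. With a replicate block the counts were 140 within SM-Cn-/-, 120 for the difference between genotypes, 796 against 2 h, 54 against 6 h and 763 against Cn-Ctl. With the block and the GC correction together, chosen after the data were seen, the difference between genotypes gave 195 and the comparison with 6 h 130. No named result reversed its direction while called.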

Other observations

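Clock genes, interferon genes and class II genes gave no call within SM-Cn-/- but had medians away from that of all genes. Of 20 circadian clock genes 0 were DEGs in limma or edgeR, 1 was higher and 5 lower in DESeq2, and 3 higher and 9 lower had an unadjusted p under 0.05. Per3, a clock repressor, had normalised counts of 85.2, 229.8 and 208 untreated and 43.6, 96.1 and 88.8 at 24 h (-1.14, adjusted p = 0.10), and Nr1d1, the nuclear receptor Rev-erbα, had 131, 142 and 191 and 273, 348 and 245 (0.90, adjusted p = 0.072). In Cn-Ctl 9 of the 20 fell and 1 rose, against 345 and 465 of all 14424 genes. The hour of collection was not analysed here. Of 23 interferon response genes 0 were DEGs in limma, edgeR and DESeq2, and 6 had an unadjusted p under 0.05, all lower, with a median of -0.55. Cxcl9, an interferon-γ induced chemokine, had 15.5, 6.00 and 10.7 and 1.15, 3.17 and 2.71 (-1.97, adjusted p = 0.078). Of 8 class II antigen presentation genes 0 were DEGs in limma or edgeR, 2 were lower in DESeq2 and 4 had an unadjusted p under 0.05, all lower. Cd74, the invariant chain, had 108, 76.4 and 86.6 and 43.95, 54.3 and 44.8 (-0.91, adjusted p = 0.19).

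Single values stood out as well. Gm14308 was at 1.31, 0.0717 and 17.9 in the 3 SM-Cn-/- libraries at 6 h of Ang-II, so that 1 of them stood at the untreated level. The red cell genes were highest in treated replicate 2, where Hbb-bs was at 1180.2 against 245 and 339 in the others. The Y-linked gene Uty, in libraries that all came from male mice, was at 55.9, 49.8 and 49.2 in SM-Cn-/- at 24 h and 8.95 and 12.8 in Cn-Ctl (2.21, adjusted p = 2.4e-05). It was at 45.5, 69.5 and 46.4 and 17.1 and 19.3 in the untreated libraries of the genotypes. Per the paper, the Myh11-CreERT2 transgene of the SM-Cn-/- mice lies on the Y chromosome, and Cn-Ctl are labelled as without it. The methods also describe Cn-Ctl mice that carry the transgene. Whether the transgene bears on Uty was not tested. Transcripts of liver plasma proteins summed to 1237 to 1985 in the untreated libraries and 403 to 1724 at 24 h.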
